A study of Mus musculus with 6 samples.

Results

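The genes described here are 31 genes of cholesterol synthesis and of its control by sterol regulatory element binding proteins (SREBPs), chosen by name. The choice was made with earlier results of these data known. All 31 were among the 18543 genes of the deposited count table, and all 31 passed the filter on low counts that left 14052 genes to test. They were measured in group 2 innate lymphoid cells (ILC2s), tissue lymphocytes that make type 2 cytokines, sorted from lung tissue of 8-week-old C57BL/6 mice. All animals, wild type and Atg5-/- alike, had received 0.5 µg of recombinant mouse IL-33 into the nose on each of 3 days, and the cells were isolated on day 4, so there was no group without IL-33. Atg5 encodes a protein needed to build autophagosomes, and the design asks what its loss does to the ILC2 transcriptome. There were 3 libraries per genotype, called here WT 1 to WT 3 and KO 1 to KO 3, as labelled. Nothing in the labels says how the knockout was made, whether it reaches only some cells, or whether the libraries come from separate animals, and the p-values therefore cover only the spread among these libraries, which may be technical.

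Cells make cholesterol from acetyl-CoA through the mevalonate pathway, whose isoprenoid products also serve to anchor proteins in membranes. SREBP2 and SREBP1, encoded by Srebf2 and Srebf1, are held in the endoplasmic reticulum by SCAP and the INSIG proteins while sterols are plentiful. When sterols fall they are cut free in the Golgi and switch on the enzyme genes. Liver X receptors work in the opposite direction, turning on cholesterol export and the turnover of lipoprotein receptors. Activated lymphocytes are known to use this system to supply membranes for growth.

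The libraries held 28827545 to 33662979 estimated counts, and levels are given as CPM, counts scaled to a common library size. A floor of 3 counts stands for 0.0892 to 0.104 CPM. Atg5 was at 66.3, 71.8 and 21.8 CPM in WT 1 to WT 3 and at 23.0, 25.6 and 52.2 CPM in KO 1 to KO 3. It followed the labels in WT 1, WT 2, KO 1 and KO 2, but WT 3 lay at the level of KO 1 and KO 2, and KO 3 lay between. Every direction below is therefore one between labels. Across all tested genes log2 CPM correlated at 0.991 between WT 1 and WT 2 and at 0.991 between WT 3 and KO 1, but at 0.946 between WT 1 and WT 3, and KO 3 correlated with no other library above 0.98. Results are given for all 6 libraries, and where they rest on WT 3 or KO 3 also without those. The 12 ILC2 markers examined, Gata3 and Il1rl1 among them, were all detected, and their summed level lay between 14831 and 18444 CPM in 5 libraries and at 11487 CPM in KO 3. The largest part of that sum was Il5, at 8242 to 9194 CPM in those 5 libraries and 5352 CPM in KO 3. Gata3 and Il1rl1 were at 927 and 527 CPM in KO 3, not lower than in KO 1 (900.1 and 456 CPM) or KO 2 (925 and 432 CPM). They were higher in WT 1 (1559 and 973 CPM) and WT 2 (1533 and 924 CPM), but not in WT 3 for Il1rl1 (964 and 471 CPM). Rora, at 359 CPM in KO 3, was also not lower than in KO 1 or KO 2, but was at 439 and 448 CPM in WT 1 and WT 2. Id2, Klrg1, Il13, Areg, Icos and Ptprc were lower in KO 3 than in both KO 1 and KO 2. Since these are bulk RNA samples, fewer cells of a type and less RNA per cell cannot be told apart.

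One library, KO 3, held a higher level of most of the pathway. The shares that follow describe members chosen with earlier results of these data known, and they are not a test. In KO 3, 18 of the 31 genes were at least 2-fold above the highest of the other 5 libraries, against 1.10% of all tested genes, and no other library had a single member that far above the rest (0.413% of tested genes for WT 1, 0.356% for WT 2, 0.0925% for WT 3, 0.0996% for KO 1 and 0.107% for KO 2). Those 18 were Insig1, 7 of 8 mevalonate and isoprenoid enzymes, 9 of 12 sterol synthesis enzymes and the sterol carrier Stard4. The remaining 5 libraries had a highest to lowest ratio between 1.09 and 2.12 (median 1.51) for these genes. For some of them, WT 1 and WT 2 differed from WT 3, KO 1 and KO 2. The difference between genotypes did not pass the test for any member.

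The sequences before 4 of these genes are shown because SREBPs are known to act through short sites near the starts of their targets, next to sites for NF-Y and Sp1. RefSeq promoter entries on GRCm38.p6, the patch release of the build called mm10, were found for 26 of the 31 members, and the 250 bases before each start were searched on both strands. The letters TCACNCCAC, a core of the classical sterol regulatory element, were found before 1 member, Hmgcs1, and before 1.22% of 27025 genes. CCAAT, the NF-Y box, was found before 22 of 26 members and before 37.5% of all genes. It was found before 13 of the 14 members with an entry that stood 2-fold higher in KO 3, and before 9 of the 12 others. GGGCGG, the GC box of Sp1, was likewise found before 22 of the 26 members, against 35.4% of all genes. These are matches of letters only, and overlap between motifs was allowed. In the 4 sequences, given from 5′ to 3′ on the strand of the gene and without bases annotated as exons, capitals mark TCACNCCAC and CCAAT or their reverse complements. The Hmgcs1 stretch is chr13:119690101-119690350 on the forward strand, that of Mvd is chr8:122443423-122443672 on the reverse strand, that of Insig1 is chr5:28071162-28071362 on the forward strand and that of Scap is chr9:110333038-110333287 on the forward strand. Scap is shown as a member that was not higher in KO 3, but it is not typical of those 12 members, since 9 of them held CCAAT.
Hmgcs1: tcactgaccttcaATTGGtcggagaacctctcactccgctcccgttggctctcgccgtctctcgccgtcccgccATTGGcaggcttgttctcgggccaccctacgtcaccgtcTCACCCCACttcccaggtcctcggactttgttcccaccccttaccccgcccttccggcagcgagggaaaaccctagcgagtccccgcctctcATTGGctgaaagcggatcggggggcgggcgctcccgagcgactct
Mvd: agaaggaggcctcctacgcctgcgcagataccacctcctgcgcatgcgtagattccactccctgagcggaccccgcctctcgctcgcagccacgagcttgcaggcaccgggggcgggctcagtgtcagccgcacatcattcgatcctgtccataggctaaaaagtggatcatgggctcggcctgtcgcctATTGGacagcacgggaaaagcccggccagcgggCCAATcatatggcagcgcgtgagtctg
Insig1: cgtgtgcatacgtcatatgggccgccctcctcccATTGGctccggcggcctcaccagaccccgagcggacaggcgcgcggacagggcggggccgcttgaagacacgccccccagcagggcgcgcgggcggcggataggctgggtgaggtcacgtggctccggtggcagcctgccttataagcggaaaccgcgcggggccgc
Scap: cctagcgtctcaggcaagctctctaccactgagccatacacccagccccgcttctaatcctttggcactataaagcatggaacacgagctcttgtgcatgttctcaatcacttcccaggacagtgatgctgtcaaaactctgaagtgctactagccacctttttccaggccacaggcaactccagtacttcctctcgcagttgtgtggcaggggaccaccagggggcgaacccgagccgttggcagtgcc
The Hmgcs1 stretch held 1 match to TCACNCCAC and 3 to CCAAT, that of Mvd held 2 matches to CCAAT and that of Insig1 held 1, while that of Scap held none of either.

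Among the genes of SREBP control, only Insig1 was at least 2-fold above every other library in KO 3. Srebf2 (mm10 chr15:82147266-82205376, forward strand), which encodes the main activator of sterol genes, was at 281, 252 and 241 CPM in WT 1 to WT 3 and at 258, 253 and 405 CPM in KO 1 to KO 3. KO 3 was 1.44-fold above the next library, and the other 5 lay within 1.16-fold of each other. Knockout minus wild type came to 0.24 as a log2 difference (SE 0.22), which did not pass (edgeR quasi-likelihood, adjusted p = 0.544). Srebf1, which encodes the factor more tied to fatty acid synthesis, was at 220.4, 252 and 209 CPM under the wild-type label and at 204, 193 and 245 CPM under the knockout label. Here KO 3 lay inside the range of the other libraries (log2 difference -0.08, SE 0.16, adjusted p = 0.779). Scap, the escort of SREBPs to the Golgi, was at 101, 96.2 and 129 CPM in WT 1 to WT 3 and at 134, 117 and 115 CPM in KO 1 to KO 3. Its groups overlapped as well (log2 difference 0.16, SE 0.16, adjusted p = 0.575). Insig1 (mm10 chr5:28071363-28078662, forward strand), the retention factor that is itself an SREBP target, was at 101, 109 and 64.3 CPM under the wild-type label and at 62.9, 75.5 and 349.6 CPM under the knockout label. KO 3 was 3.20-fold above the next library, while KO 1 and KO 2 lay below WT 1 and WT 2. The log2 difference of 0.83 (SE 0.65, adjusted p = 0.495) became -0.40 (SE 0.26, adjusted p = 0.509) without KO 3. Insig2, the second retention factor, ranged from 28.7 to 48.4 CPM over the 6 libraries and KO 3 did not stand out.

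**Figure D1:**
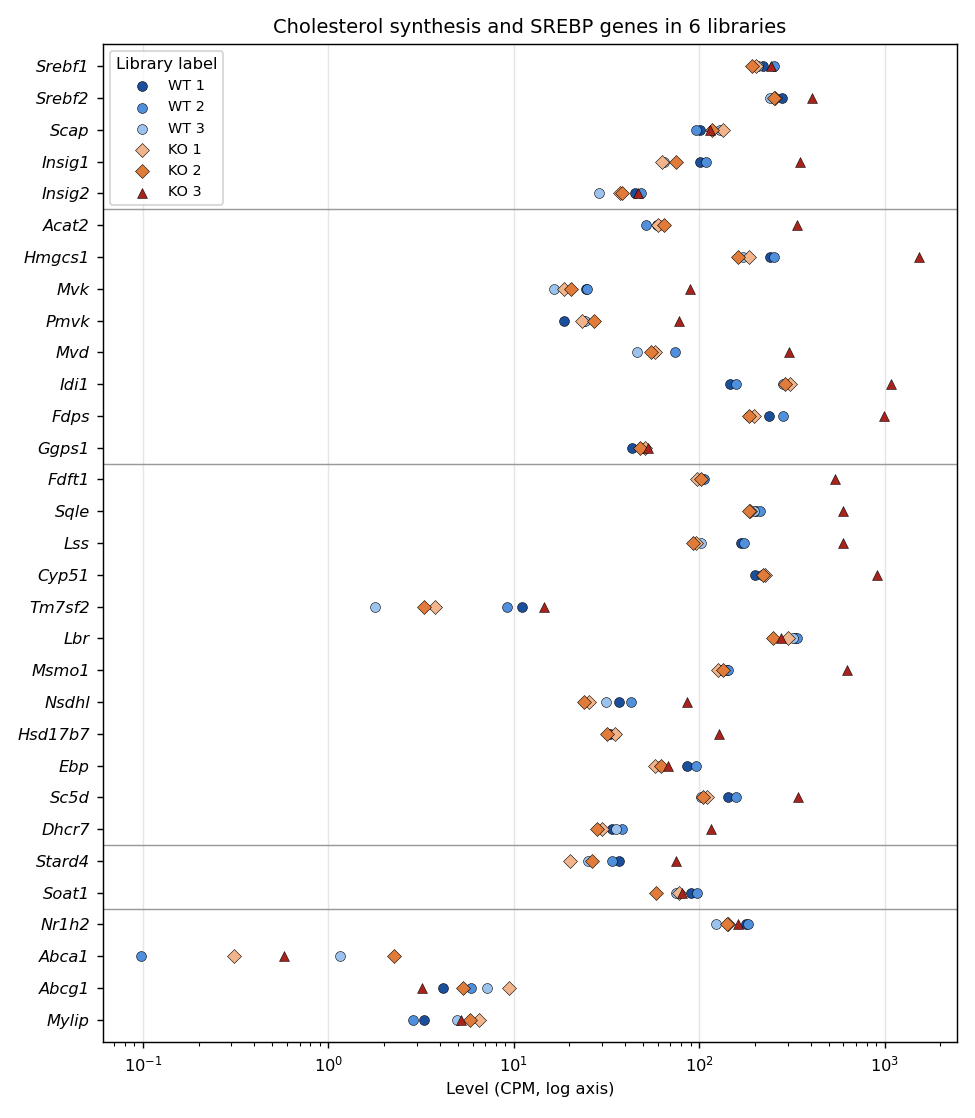
Level of each of the 31 genes in each library, in CPM on a log axis; circles are libraries labelled wild type, diamonds KO 1 and KO 2, the triangle KO 3, and grey lines part the 5 roles. The triangle lies to the right of all other symbols for 21 genes, and Abca1 in WT 1, at 0, is not drawn.

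The mevalonate and isoprenoid enzymes showed the largest excess in KO 3. Their summed level was 829.5, 926 and 840.3 CPM in WT 1 to WT 3, 903 and 854 CPM in KO 1 and KO 2, and 4479 CPM in KO 3. Hmgcs1 (mm10 chr13:119690379-119708260, forward strand), the cytosolic synthase that makes HMG-CoA, was at 240.1, 255 and 173 CPM under the wild-type label and at 185, 162 and 1527 CPM under the knockout label. For this gene, the member with the TCACNCCAC match, KO 3 was 5.99-fold above the highest other library, 8.24-fold above KO 1 and 9.43-fold above KO 2. Hmgcs1 averaged 223 ± 43.7 CPM over the wild-type libraries and 625 ± 781 CPM over the knockout libraries (SD, n = 3 each), and the log2 difference of 1.49 (SE 0.85) did not pass (adjusted p = 0.385, edgeR). Acat2, the thiolase that joins acetyl-CoA units at the start of the pathway, was at 59.4, 51.5 and 61.0 CPM in WT 1 to WT 3 and at 59.7, 64.7 and 338 CPM in KO 1 to KO 3. Again only KO 3 left the common range (log2 difference 1.43, SE 0.66, adjusted p = 0.353). Both phosphorylating steps and the decarboxylation that follow HMG-CoA reduction were also set apart in KO 3 alone. Pmvk, the phosphomevalonate kinase, was at 18.8, 24.1 and 24.3 CPM under the wild-type label and at 23.5, 27.1 and 78.4 CPM under the knockout label. Mvd, the decarboxylase that yields isopentenyl diphosphate, was at 57.9, 74.5 and 46.5 CPM in WT 1 to WT 3 and at 58.1, 54.9 and 306 CPM in KO 1 to KO 3. Mvk, the mevalonate kinase, lay between 16.6 and 24.8 CPM in the other 5 libraries and at 89.6 CPM in KO 3. The adjusted p in edgeR was 0.357 for Pmvk, 0.376 for Mvd and 0.415 for Mvk.

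Idi1 and Ggps1 departed from this pattern. Idi1, the isomerase that makes dimethylallyl diphosphate, was at 146 and 159 CPM in WT 1 and WT 2 and at 283 CPM in WT 3. In KO 1 to KO 3 it was at 310.1, 291 and 1088 CPM. It was the only one of the 18 genes whose 3 knockout libraries all lay above the 3 wild-type ones, with WT 3 beside KO 1 and KO 2 and KO 3 a further 3.51-fold higher. It had the largest positive log2 difference of the 31 members with all 6 libraries, 1.52 (SE 0.57, unadjusted p = 0.0315, adjusted p = 0.342, edgeR). Of the 20 enzymes it was the only one to pass as higher in an edgeR fit without WT 3 and KO 3, where 22.7% of all tested genes passed as higher. Its log2 difference there was 0.98 (SE 0.08, adjusted p = 6.79e-06). The libraries of that fit were chosen with earlier results of these data known. Ggps1, which makes the geranylgeranyl diphosphate used in protein prenylation, was between 43.5 and 53.3 CPM in all 6 libraries (log2 difference 0.09, SE 0.13, adjusted p = 0.713). Fdps, the farnesyl diphosphate synthase that precedes both branches, was at 999 CPM in KO 3 against 187 to 285 CPM elsewhere.

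**Figure D2:**
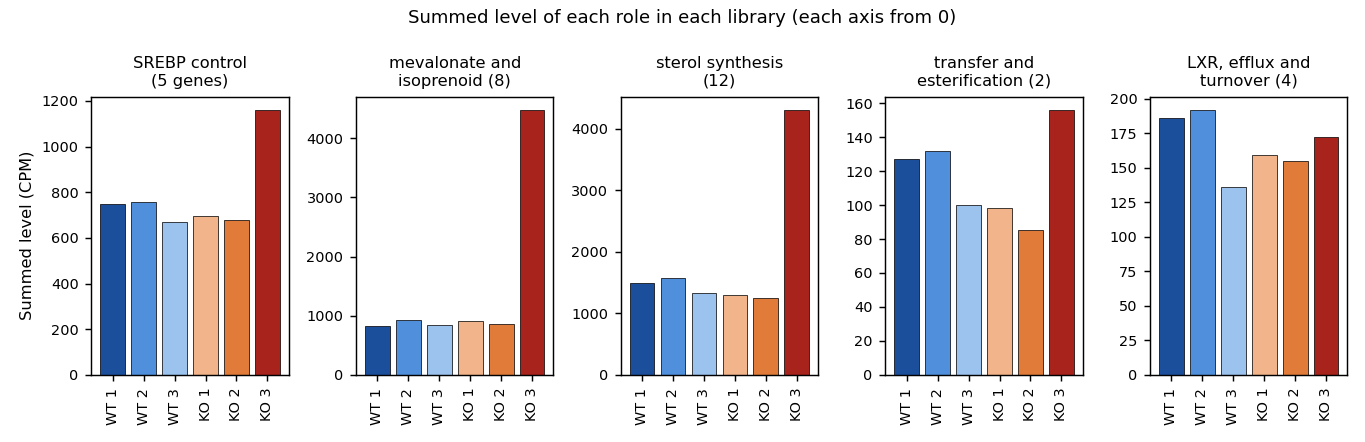
Summed level of the genes of each role in each library, in CPM, each axis starting at 0; a bar is 1 library. KO 3 stands at 4479 CPM for the mevalonate and isoprenoid enzymes and at 4304 CPM for the sterol synthesis enzymes, and inside the range of the other libraries for the liver X receptor and efflux genes.

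Sterol synthesis enzymes, which turn farnesyl diphosphate into squalene, lanosterol and cholesterol, summed to 1491, 1579 and 1336 CPM in WT 1 to WT 3, 1299 and 1244 CPM in KO 1 and KO 2, and 4304 CPM in KO 3. Fdft1 (mm10 chr14:63145150-63179578, reverse strand), the squalene synthase that commits carbon to sterols, was at 98.6, 106 and 102 CPM under the wild-type label and at 97.2, 103 and 538 CPM under the knockout label. The other 5 libraries lay within 1.09-fold of each other, the tightest of the 18 genes, and KO 3 was 5.07-fold above the highest of them. The log2 difference of 1.27 (SE 0.66, adjusted p = 0.366, edgeR) became -0.02 (SE 0.13) without KO 3. Sqle, the squalene epoxidase, was at 203, 212 and 198 CPM in WT 1 to WT 3 and at 188, 187 and 597 CPM in KO 1 to KO 3 (adjusted p = 0.442). Cyp51, the lanosterol demethylase, was at 201, 224 and 219 CPM in WT 1 to WT 3 and at 227, 221 and 911 CPM in KO 1 to KO 3 (adjusted p = 0.366). In both genes the 2 groups were alike apart from KO 3. Msmo1, the methylsterol oxidase, and Hsd17b7, a ketoreductase of the same demethylation complex, followed suit, at 126 to 144 CPM against 629.6 CPM in KO 3 and at 31.7 to 35.4 CPM against 128 CPM. Dhcr7, which carries out the last reduction of one branch, lay between 28.3 and 38.3 CPM in the other libraries and at 116 CPM in KO 3.

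A second pattern, a higher level in WT 1 and WT 2 than in WT 3, KO 1 and KO 2, ran beneath the excess in KO 3 for some enzymes. Markers of ILC2s and single markers of other cell types divided the same libraries. Among ILC2 markers, Klrg1 was at 526 and 556 CPM in WT 1 and WT 2 and at 121 to 174 CPM in the other 4 libraries. Id2 was at 2001 and 2138 CPM against 932 to 1033 CPM, and Il13 at 99.0 and 117 CPM against 286 to 367 CPM, but Il5 did not divide them. Of the 4 epithelial markers in the table Epcam was at 57.4 and 52.3 CPM in WT 1 and WT 2 and at 8.90 to 14.3 CPM in the other 4 libraries. Scgb1a1 differed, at 15.0 CPM in KO 2 and at most 0.232 CPM elsewhere. Of the 4 endothelial and fibroblast markers Pecam1 was at 10.4 and 8.54 CPM in WT 1 and WT 2 against 92.0 to 131 CPM. The summed epithelial list was at 59.1 and 53.0 CPM in WT 1 and WT 2 and at 9.09 to 29.7 CPM in the others, and the summed endothelial and fibroblast list at 10.4 and 9.16 CPM against 92.0 to 132 CPM. Col1a1, Col1a2 and Pdgfrb stayed below 1 CPM in all 6 libraries, as did Ager and Krt18. Single markers of T cells, macrophages and mast cells also divided the libraries. Cd3g was at 35.3 and 37.2 CPM in WT 1 and WT 2 against 11.4 to 18.8 CPM in the others. Cd68 was at 7.77 and 7.46 CPM against 2.12 to 3.32 CPM, and Cpa3 at 8.98 and 5.73 CPM against 0.447 to 3.43 CPM. Cd3e, Itgam and Tpsb2, from the same lists, did not divide them. The part of other cell types in this pattern was not tested. Lss, the lanosterol synthase, named here after its values were seen, was at 169 and 175 CPM in WT 1 and WT 2, 103 CPM in WT 3, 96.1 and 92.6 CPM in KO 1 and KO 2 and 595 CPM in KO 3. Sc5d, the lathosterol desaturase, was at 144 and 159 CPM in WT 1 and WT 2, at 102 to 111 CPM in WT 3, KO 1 and KO 2, and at 343 CPM in KO 3. Nsdhl, a decarboxylating dehydrogenase of the demethylation complex, was at 37.1 and 42.7 CPM in WT 1 and WT 2, at 23.9 to 31.5 CPM in the next 3 libraries and at 86.5 CPM in KO 3. Tm7sf2, one of a pair of sterol reductases with the same activity and named after its values were seen, was low throughout and most uneven, with 11.1 and 9.16 CPM in WT 1 and WT 2, 1.79 CPM in WT 3, 3.78 and 3.30 CPM in KO 1 and KO 2, and 14.6 CPM in KO 3. Its counts can be shared with Vps51, whose annotated exons overlap its own on the same strand. Lbr, the other reductase and also a receptor of the nuclear lamina, did not share the excess in KO 3. It was at 331, 337 and 321 CPM in WT 1 to WT 3 and at 301, 249 and 276 CPM in KO 1 to KO 3, so that the groups did not overlap (log2 difference -0.26, SE 0.14, adjusted p = 0.372). Ebp, the sterol isomerase, was at 85.8, 96.1 and 61.9 CPM under the wild-type label and at 58.1, 62.3 and 68.1 CPM under the knockout label, where KO 3 lay with WT 3 and the other knockout libraries. With all 6 libraries Ebp did not pass (log2 difference -0.37, SE 0.19, adjusted p = 0.361), and without WT 3 it fell by 0.53 (SE 0.11, adjusted p = 0.0107).

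**Figure D3:**
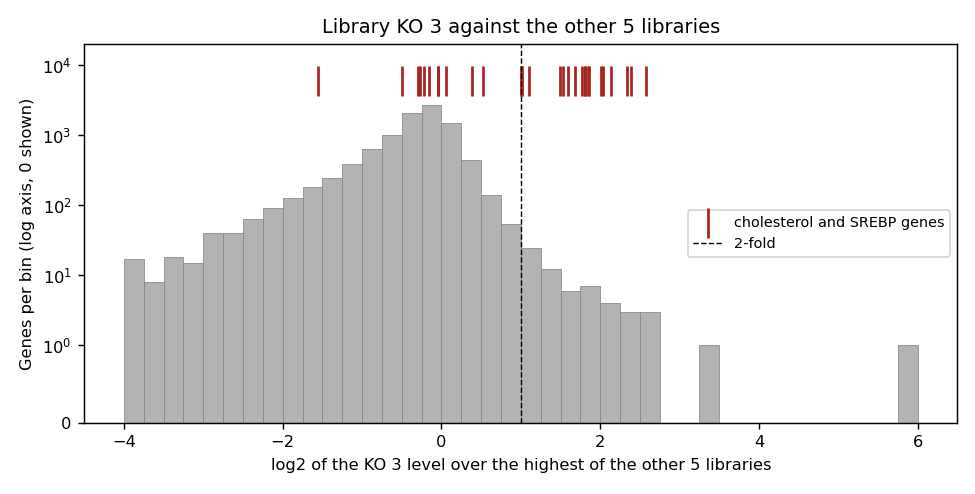
Level in KO 3 over the highest of the other 5 libraries, on a log2 axis from -4 to 6, for the 9761 genes with a mean of at least 5 CPM (grey bars, log count axis) and for the 29 members among them (red ticks); genes beyond this range are not drawn. The 18 ticks at or to the right of the dashed 2-fold line lie in the sparse right tail.

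Ranked by that ratio among the 9761 genes with a mean of at least 5 CPM, Hmgcs1 was number 4, Acat2 number 7, Fdft1 number 8 and Msmo1 number 9, and 11 of the first 20 genes were members. Just inside the 2-fold line were Nsdhl at 2.02 and Stard4 at 2.01, and just outside it were Srebf2 at 1.44 and Tm7sf2 at 1.31. KO 3 was the highest of the 6 libraries for 21 of 31 members, against 22.0% of all tested genes. KO 3 is 1 library, so its distance from the others has no replicate check and carries no p-value. Because the members were chosen with earlier results of these data known, these ranks and shares are a description only. The total counts of KO 3 lay within the range of the other libraries. Of the 5 B cell markers in the table, Ighm was at 194 CPM and Igkc at 37.0 CPM in KO 3, against at most 17.3 and 0.684 CPM elsewhere, and the summed level of the list was 238 CPM against 24.6 to 32.0 CPM. Cd79a was at 0.287 CPM in KO 3, and Cd79b, at 6.38 CPM, was below all other libraries. Igha at 9.60 CPM and Jchain at 4.40 CPM, genes of antibody-secreting cells looked at after the values were seen, were also highest in KO 3. Their part in the excess was not tested.

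Transfer and storage of sterols divided. Stard4, a soluble carrier of cholesterol, was at 37.1, 33.8 and 25.2 CPM in WT 1 to WT 3 and at 20.2, 26.6 and 74.7 CPM in KO 1 to KO 3, which again set KO 3 apart (adjusted p = 0.708, edgeR). Soat1, which esterifies cholesterol for storage, was at 90, 97.8 and 75 CPM under the wild-type label and at 78.3, 58.6 and 81.3 CPM under the knockout label (adjusted p = 0.426). KO 3 lay inside the range of the wild-type libraries for Soat1.

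Among the 4 liver X receptor and efflux genes, 0 were higher in KO 3 than in every other library, against 22.0% of all tested genes. Nr1h2, which encodes liver X receptor beta, was at 178, 183 and 123 CPM in WT 1 to WT 3 and at 143, 142 and 163 CPM in KO 1 to KO 3 (log2 difference -0.11, SE 0.18, adjusted p = 0.752). Abcg1, a cholesterol exporter and liver X receptor target, was at 4.16, 5.86 and 7.16 CPM under the wild-type label and at 9.46, 5.35 and 3.22 CPM under the knockout label. KO 3 was the lowest of the 6 libraries for Abcg1. Abca1, the other main exporter, was near the floor, at 0, 0.0982 and 1.16 CPM in WT 1 to WT 3 and at 0.312, 2.26 and 0.574 CPM in KO 1 to KO 3, and so had a large counting error. Mylip, the ubiquitin ligase that removes lipoprotein receptors, was at 3.28, 2.85 and 4.97 CPM under the wild-type label and at 6.48, 5.83 and 5.23 CPM under the knockout label. Its groups did not overlap, with WT 3 closest to the knockout libraries (log2 difference 0.66, SE 0.31, adjusted p = 0.354). Without WT 3 Mylip rose by 0.94 (SE 0.27, adjusted p = 0.0359).

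Counted over all members, 0 of 31 passed in either direction with all 6 libraries (edgeR quasi-likelihood with Benjamini-Hochberg adjustment over 14052 genes), as did 0% of all tested genes, and 1 member, Idi1, had an unadjusted p under 0.05, against 14.4% of all tested genes. DESeq2, limma-voom and limma-trend also passed 0 members (DESeq2 passed 0.107% of tested genes as higher and 2.19% as lower), with 7, 2 and 1 members at an unadjusted p under 0.05, against 19.2%, 16.6% and 16.5% of all genes with a p in those fits. The median log2 difference of the members was 0.67, against 0.02 over all tested genes, and 25 of 31 estimates were positive. Without KO 3 the median was -0.12, 10 of 31 estimates were positive and again 0 passed in edgeR, with 2 members at an unadjusted p under 0.05, against 7.25% of all tested genes. The 3 knockout libraries all lay above the 3 wild-type libraries for 2 members, Idi1 and Mylip, and all below for 1, Lbr, against 9.26% and 9.22% of tested genes. Without WT 3, 1 of 31 members passed as higher and 1 as lower, Mylip and Ebp, against 17.7% and 16.1% of all tested genes.

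**Figure D4:**
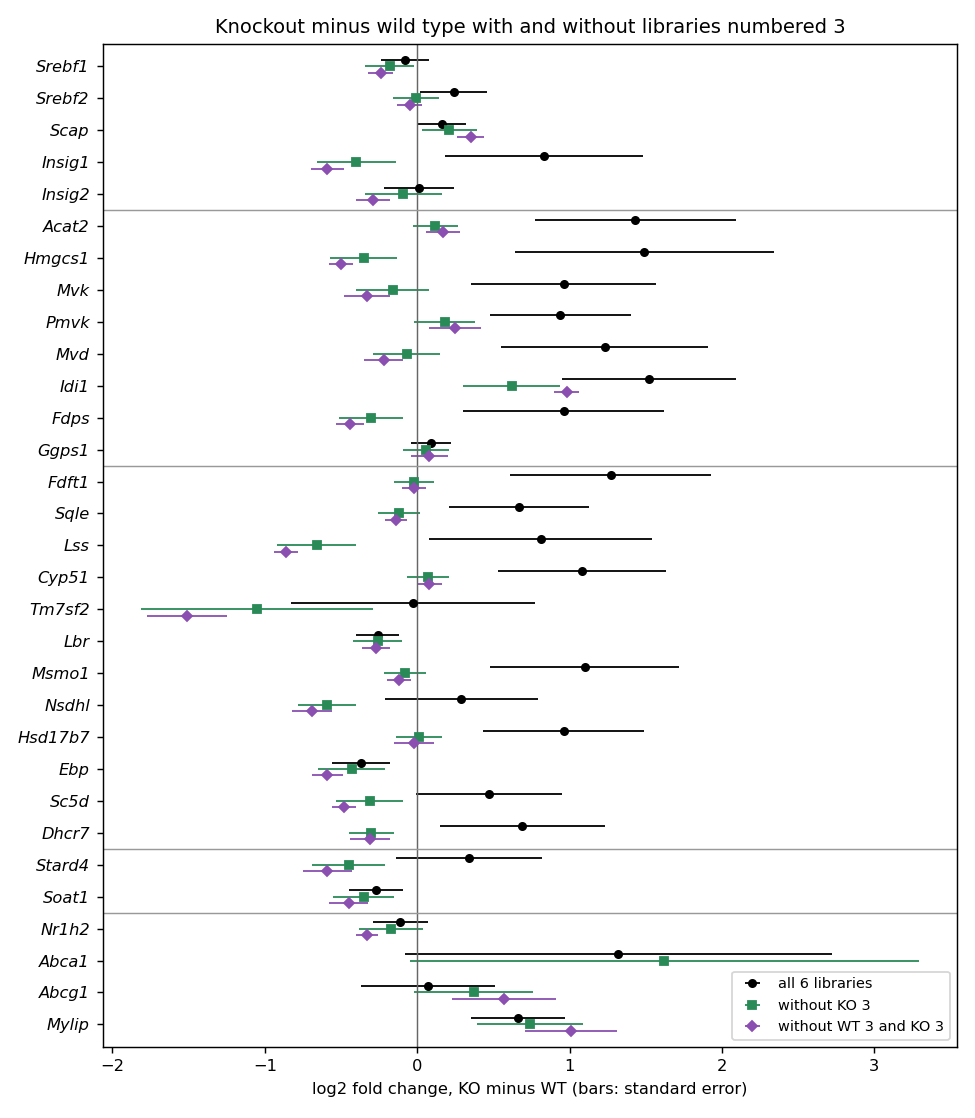
Log2 difference of each member, knockout minus wild type, with its standard error, from edgeR fits to all 6 libraries (black), without KO 3 (green) and without WT 3 and KO 3 (purple); Abca1 was not tested in the last. The enzymes with large positive black values and wide bars lie near or below 0 in green and purple, except Idi1 at 0.62 and 0.98.

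When WT 3 and KO 3 were both left out, a comparison of 2 libraries with 2, 3 of 30 tested members passed as higher and 13 as lower, against 22.7% of tested genes in each direction. This choice of libraries rests on what earlier results of these data showed, so it describes the 4 libraries that remain, which Epcam and Pecam1 also divide. The largest falls were in Tm7sf2 (-1.51, SE 0.26, adjusted p = 0.00109), Lss (-0.86, SE 0.08, adjusted p = 1.38e-05) and Nsdhl (-0.69, SE 0.13, adjusted p = 0.00198), all edgeR log2 differences. Insig1 fell by 0.59 (SE 0.11, adjusted p = 0.00135) and Hmgcs1 fell by 0.50 (SE 0.08, adjusted p = 9.01e-04), both against their level in KO 3. Fdps, Sc5d, Stard4, Ebp, Soat1, Nr1h2, Lbr and Srebf1 were the others that fell, by 0.24 to 0.59. Scap (0.35), Idi1 (0.98) and Mylip (1.01) rose. Fdft1, Cyp51 and Hsd17b7, which had been 3.62- to 5.07-fold above the next library in KO 3, had log2 differences of -0.02, 0.08 and -0.02 in the 4 libraries.

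Levels of different genes can be compared only per length of transcript. Per kilobase of exon in coding transcripts, Fdps was the most abundant member outside KO 3, at 105 to 161 CPM per kilobase in the other 5 libraries. By the median of those 5 libraries Idi1 (91.7, range 47.4 to 100.4), Lbr (80.9, range 62.9 to 85.1), Sqle (71.7, range 67.8 to 76.9) and Msmo1 (57, range 53.1 to 60.5 CPM per kilobase) came next. Among these 4, neighbours in the order overlapped except Sqle and Msmo1, and Hmgcs1, at 44.4 to 69.9 CPM per kilobase, overlapped several of them. In KO 3 the order was Fdps at 562, Hmgcs1 at 419, Idi1 at 352, Msmo1 at 265 and Cyp51 at 232 CPM per kilobase. At the low end in the other 5 libraries were Tm7sf2 at 0.809 to 5.04, Mylip at 0.881 to 2.00, Abcg1 at 0.608 to 1.38 and Abca1 at no more than 0.220 CPM per kilobase. Together the 20 enzymes of both synthesis roles made up 2098 to 2505 CPM in the other libraries and 8783 CPM in KO 3.

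Other genes linked to the pathway were examined in 5 lists, and in edgeR's fit to all 6 libraries 0 members of any list passed. These lists, too, were chosen with earlier results of these data known. Counts below stand against 14.4% of all tested genes at an unadjusted p under 0.05 in that fit, and against 17.7% called higher and 16.1% called lower without WT 3. The list that resembled the sterol enzymes was the fatty acid arm of SREBP, in which 6 of 13 genes were at least 2-fold above every other library in KO 3 (all genes 1.10%). Fasn, the fatty acid synthase, was at 156, 145 and 236 CPM in WT 1 to WT 3 and at 251, 240.1 and 519 CPM in KO 1 to KO 3, with WT 3 beside KO 1 and KO 2 and KO 3 above them, as for Idi1. Acaca, the acetyl-CoA carboxylase, was at 12.1, 12.8 and 21.8 CPM in KO 1 to KO 3 and no higher than 7.11 CPM in the wild-type libraries, and Mid1ip1, an activator of that enzyme, was at 166 CPM in KO 3 against 78.1 to 124 CPM. Scd2, a desaturase, at 382 CPM against 40.3 to 65.3 CPM, and Acss2, which makes acetyl-CoA from acetate, at 167 CPM against 21.1 to 30.3 CPM, were chosen after their values were seen and had the excess in KO 3 alone. At an unadjusted p under 0.05 were 2 of the 13, and the median log2 difference was 0.64. Without WT 3, 3 genes of this list rose, Acaca, Fasn and Mid1ip1, and 1 fell, of 13 tested (all genes 17.7% and 16.1%).

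**Figure D5:**
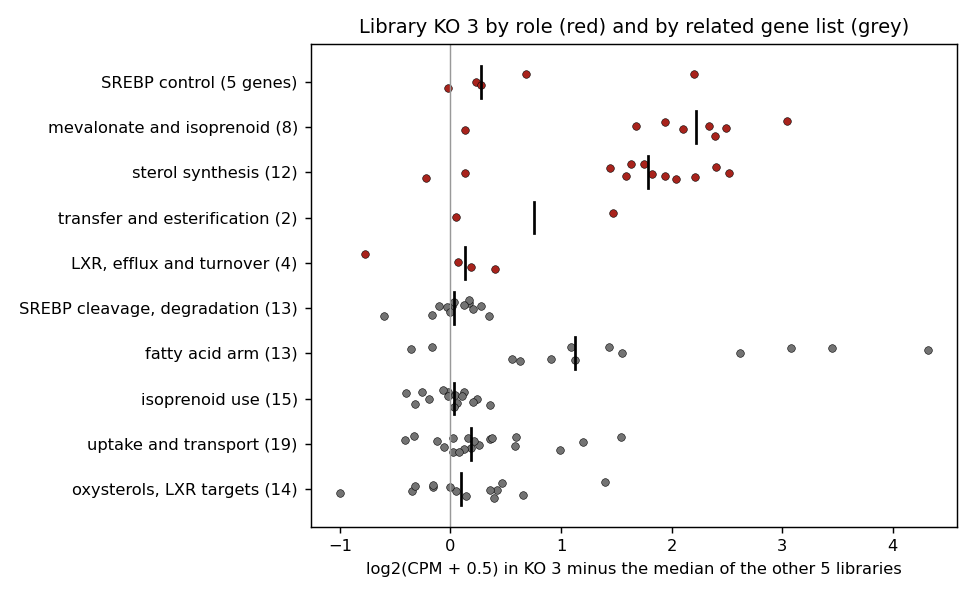
Log2(CPM + 0.5) in KO 3 minus the median of the other 5 libraries for each member by role (red) and for each gene of 5 related lists (grey), with a black line at the median of each set and the number of genes in brackets. The mevalonate, sterol synthesis and fatty acid sets lie mostly above 1, and the sets of SREBP cleavage and of isoprenoid use lie around 0.

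SREBP cleavage and sterol-regulated degradation, the proteases and ubiquitin ligases that act on SREBPs, INSIGs and the reductase, had no gene with a 2-fold excess in KO 3. This was 0 of 13 genes, against 1.10% of all tested genes. KO 3 was the highest of the 6 libraries for 6 of the 13, against 22.0% of all tested genes. The median log2 difference with all 6 libraries was 0.03, and without WT 3 3 rose and 0 fell (all genes 17.7% and 16.1%). Vcp, the ATPase that extracts proteins for degradation, was at 1049, 1082 and 1327 CPM in WT 1 to WT 3 and at 1347, 1320.3 and 1599.6 CPM in KO 1 to KO 3, and its partner Ufd1 was at 85.9 to 109 CPM against 111 to 126 CPM. The ligase gene Rnf139 was at 67.1 to 72.1 CPM against 57.5 to 63.8 CPM.

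Genes of isoprenoid use, which attach prenyl groups or build dolichol and coenzyme Q, were 2-fold higher in KO 3 in 0 of 15 cases (all genes 1.10%). KO 3 was the highest library for 2 of the 15 (all genes 22.0%). The median log2 difference was 0.11, and without WT 3 3 of 15 genes rose and 0 fell (all genes 17.7% and 16.1%). Rabggtb, a subunit of the enzyme that prenylates Rab proteins, was at 27.7 and 26.4 CPM in WT 1 and WT 2 and at 57.2 to 61.3 CPM in the other 4 libraries. Pdss1, which makes the coenzyme Q tail, was at 10.0 and 9.00 CPM in WT 1 and WT 2 and at 17.0 to 26.5 CPM in the others, and Nus1, a subunit of the dolichol synthase, was at 42.5 to 59.7 CPM against 60.5 to 76.6 CPM.

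Among 18 tested genes of lipoprotein uptake and cholesterol transport, 0 were 2-fold higher in KO 3 (all genes 1.10%), and the median log2 difference was -0.04. KO 3 was the highest library for 5 of the 18 (all genes 22.0%). Without WT 3, 4 rose and 5 fell of 18 tested (all genes 17.7% and 16.1%). Lipa, the lysosomal acid lipase, was at 41.8 to 55.0 CPM against 34.1 to 42.9 CPM by label. Tmem97, a sterol-responsive membrane protein, was at 71.5 and 75.3 CPM in WT 1 and WT 2, 122 to 127 CPM in WT 3, KO 1 and KO 2, and 183 CPM in KO 3.

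Of 11 tested genes of oxysterols and further liver X receptor targets, 1 was 2-fold higher in KO 3 (all genes 1.10%). This was Soat2, the second sterol acyltransferase, at 9.51, 9.00 and 17.0 CPM in WT 1 to WT 3 and at 21.4, 16.1 and 43.2 CPM in KO 1 to KO 3. Abca7, a lipid transporter, was at 156 and 136 CPM in WT 1 and WT 2 and at 64.8 to 83.7 CPM in the other 4 libraries. Rxrb, a partner of the liver X receptors, was at no more than 68.6 CPM in the wild-type libraries and at 75.2 CPM or more in the knockout libraries. The median log2 difference was 0.03, with 4 of 11 genes at an unadjusted p under 0.05 (all genes 14.4%), and without WT 3 2 rose and 5 fell of 13 tested (all genes 17.7% and 16.1%).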

How the data were processed

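Messenger RNA from sorted lung ILC2s was measured in 6 libraries, 3 per genotype, grouped by sample title. The authors deposited estimated counts per gene and a normalized signal, in which 1 is added to each estimated count and the sum is scaled by a constant of the library (31.2 to 36.0). Per the submitters' processing notes, CASAVA 1.8.2, STAR, Partek and mm10 were used, with no role or order; the sources used here do not give the sharing of reads between genes or the use of strand. Exons of 11 members overlap those of another annotated gene (for example Fdft1 and Ctsb, on opposite strands), so their counts are uncertain.

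Estimated counts were rounded and fitted over the whole table in R 4.3.3 with edgeR 4.0.16 (TMM, filterByExpr, robust glmQLFit, glmQLFTest), knockout against wild type without covariate, with Benjamini-Hochberg adjustment and a threshold of 0.05. SE was taken as the log2 difference over the root of the F statistic. CPM use TMM-scaled totals. Floors cover counting error only. The fits were tested on simulated data. Alternatives were other scalings and filters, DESeq2 1.42.0, limma 3.58.1 (voom, and trend on log2 of the authors' signal plus 1), a replicate block and left-out libraries. Members and lists were chosen with earlier results of these data known. Values in every library are given for 8 fixed genes and the 4 lowest p per role, and up to 3 genes are named per related list. End coordinates were reduced by 1 base; exons are GENCODE vM21. Some items are not reported here.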

Additional observations from a re-analysis of the deposited data

How the results depend on the processing

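With all 6 libraries, no setting passed a member. Other scalings (DESeq2 size factors, upper quartile, library totals), filters, tools, non-robust dispersion and thresholds of 0.1 and 0.01 gave 0 higher and 0 lower, as did the replicate block. The members' median log2 difference, 0.67, was 0.33 with the replicate block, 0.36 with limma-voom, 0.33 with limma-trend and 0.63 to 0.67 under the others. Deviations of same-numbered libraries from their group means correlated at -0.04, 0.02 and -0.01 for numbers 1, 2 and 3. With 3 libraries per group, and WT 3 and KO 3 apart from the rest, these values cannot decide whether the numbers mark pairs. DESeq2 passed 1 gene of the fatty acid arm as higher. The direction of genes near 0 turned for Insig2 (-0.01 with DESeq2 and with its size factors, -0.02 with upper-quartile scaling, -0.03 with either other filter) and Abcg1 (-0.04 with limma-voom and limma-trend, -0.03 with the replicate block).

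Leaving out 1 library gave members' medians from -0.12 (without KO 3) to 0.94 (without KO 1), and 0 to 1 member higher and 0 to 1 lower. The upper ends were without WT 3, where 17.7% and 16.1% of all tested genes were called. Without KO 3, 15 members turned negative: Srebf2 (-0.01), Insig1 (-0.40), Insig2 (-0.09), Hmgcs1 (-0.35), Mvk (-0.16), Mvd (-0.07), Fdps (-0.30), Fdft1 (-0.02), Sqle (-0.12), Lss (-0.66), Msmo1 (-0.08), Nsdhl (-0.59), Sc5d (-0.31), Dhcr7 (-0.30) and Stard4 (-0.45). The highest values of these and of Hsd17b7 were without KO 1: Srebf2 0.35, Insig1 1.22, Hmgcs1 1.93, Mvk 1.33, Mvd 1.60, Fdps 1.33, Fdft1 1.65, Sqle 0.94, Lss 1.21, Msmo1 1.47, Nsdhl 0.58, Hsd17b7 1.26, Sc5d 0.74, Dhcr7 1.01 and Stard4 0.66, whereas Insig2 was highest without WT 2 (0.16). Tm7sf2 became 0.36 and 0.16 without WT 1 and WT 2 and 0.28 without KO 1 or KO 2, Abcg1 became -0.14 without WT 1 and -0.41 without KO 1, and Insig2 became -0.18 without WT 3.

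Without WT 3 and KO 3, 3 of 30 tested members passed as higher and 13 as lower (median -0.26), against 22.7% of all tested genes in each direction. Turned negative there were Srebf2 (-0.05), Insig1 (-0.59), Insig2 (-0.29), Hmgcs1 (-0.50), Mvk (-0.33), Mvd (-0.22), Fdps (-0.44), Fdft1 (-0.02), Sqle (-0.14), Lss (-0.86), Msmo1 (-0.12), Nsdhl (-0.69), Hsd17b7 (-0.02), Sc5d (-0.48), Dhcr7 (-0.31) and Stard4 (-0.59). Tm7sf2 reached its lowest value (-1.51) and Abcg1 its highest (0.57). Higher and lower calls in the related lists, 0 with all 6 libraries in edgeR, stand against the same 22.7% each. They became 3 and 1 of 13 tested for SREBP cleavage, 3 and 5 of 12 for the fatty acid arm and 6 and 0 of 15 for isoprenoid use. For uptake and transport they became 4 and 8 of 18, and for oxysterols 3 and 6 of 12. Leaving out 1 library gave 0 to 3 and 0, 0 to 3 and 0 to 1, 0 to 3 and 0, 0 to 4 and 0 to 5, and 0 to 2 and 0 to 5 in that order. The upper ends were all without WT 3, where 17.7% of all tested genes were called higher and 16.1% lower.

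Depth limits Abca1, at 0 to 76 counts. Tm7sf2 (54 to 456 counts), Abcg1 (101 to 273) and Mylip (87 to 196) were low but well above the floor of 3 counts. The excess in KO 3 rests on 1 library. DESeq2 gave no adjusted p for Hmgcs1.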
